A study of Drosophila melanogaster with 39 samples.

Results

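The GSS loop is a synthetic version of the specificity loop of Piwi, in which glycine and serine, in the order Gly-Ser-Ser written 3 times, stand in place of the native residues. Tagged Piwi with this loop was compared with tagged Piwi carrying its own loop (wt) in OSC, a cell line derived from the somatic sheath of the Drosophila melanogaster ovary. The comparison takes every library that the labels name as GSS or wt Piwi from OSC, which gives 3 GSS and 5 wt libraries, 8 of the 39 samples in the series. In both groups a FLAG-HA-tagged Piwi was expressed from an episomal plasmid after transient transfection into the same cell line, and the small RNAs that came down with the tag were sequenced. No drug or time course separated the groups. The cells kept their own Piwi gene, so the tagged protein acted beside the endogenous one. The study describes its replicated OSC data for wt and GSS as coming from 3 biological replicates. Neither it nor the labels say which of the 5 wt libraries these are or whether each library is a separate transfection, so part of the spread behind the p-values may be technical. The tables hold no gene markers, and the labelled cell type could not be checked against any.

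Piwi is the nuclear PIWI-clade Argonaute of Drosophila. It binds piRNAs, small RNAs longer than microRNAs that guide silencing of transposons in the gonad. Somatic cells of the ovary make piRNAs from long single-stranded precursors, many of them antisense to retrotransposons of the gypsy group, and the nuclease Zucchini cuts these precursors to release 5′ ends that often begin with uridine. In the bound complex the first base sits in a pocket of the MID domain lined by the specificity loop, and synthetic loops such as GSS were made to ask how far this loop sets the preference for a first uridine. The length of a bound RNA, the number of places it matches in the genome and the kind of locus it comes from are the readouts given here. The first base itself is not among them.

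The designed loop can be read from the study's cloning primers. Each primer pair anneals to Piwi on either side of the loop and carries a tail that writes the new loop, and the tails are shown because they encode the part of Piwi that was exchanged. Capitals mark the tail and lower case marks the part that anneals to piwi (FBgn0004872), which lies on chromosome 2L, 10982205 to 10987420, minus strand, in the coordinates of dm6.
GSS forward primer: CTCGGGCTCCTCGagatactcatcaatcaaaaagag
GSS reverse primer: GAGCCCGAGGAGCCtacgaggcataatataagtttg
Piwi N>P forward primer: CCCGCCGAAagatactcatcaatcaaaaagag
Piwi N>P reverse primer: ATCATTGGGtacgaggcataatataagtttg
Joining the reverse complement of each reverse tail to its forward tail gives the sense strand of the loop. In the GSS loop the glycine codons are in capitals, and each is followed by a pair of serine codons.
GSS loop: GGCtcctcgGGCtcctcgGGCtcctcg
Piwi N>P loop: cccaatgatcccgccgaa
The GSS loop spans 27 nt, or 9 codons, against 18 nt and 6 codons for the N>P variant, a Piwi construct made with the same annealing parts. Primer pairs for the loops of Aub and of human AGO2 also share these annealing parts, and write loops of 18 nt and 15 nt.

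The libraries differed in depth and some stood apart. GSS libraries held 15801689, 8905795 and 26677105 raw reads in replicates 1 to 3. The wt libraries held 2861749 to 10745821 raw reads, so the GSS group was deeper, with overlap between the groups. At these depths the 95% Clopper-Pearson interval of a library's unique or unmapped share was at most 0.0598 percentage points to either side. It covers counting error only, since PCR copies are not independent molecules. GSS replicate 3 carried a barcode of 10 nt with an N prefix, whereas GSS replicates 1 and 2 and the 5 wt libraries carried barcodes of 8 nt. Among the wt libraries, replicates 1 and 5 carried the same barcode number, 75. GSS replicate 3 also differed from the others in unmapped reads and in length, as did wt replicate 5. Differences between GSS and wt are therefore also given without GSS replicate 3 or wt replicate 5.

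Reads that mapped to a single place in the genome made up a smaller share in every GSS library than in any wt library, but the difference did not pass the threshold after adjustment. Unique reads made up 29.2%, 29.5% and 30.6% of mapped reads in GSS replicates 1 to 3. The same share was 35.1%, 35.9%, 33.8%, 34.2% and 32.6% in wt replicates 1 to 5. Every GSS library lay below every wt library, and the GSS libraries spanned a narrower range. Group means were 29.8% ± 0.726 (SD, n = 3) for GSS and 34.3% ± 1.26 (SD, n = 5) for wt. The difference of −4.57 percentage points had a 95% interval from −6.76 to −2.07, obtained by inverting the two-sided exact permutation test. The exact permutation p was 0.0357, the smallest value that the 56 splits of these libraries allow, and an adjusted p of 0.0893 over the 5 mapping shares by Benjamini-Hochberg. The difference therefore exceeded the spread between replicates and missed the adjusted threshold of 0.05. Even complete separation in this share alone could not pass after adjustment over 5 shares, because of the few libraries.

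The complement of the unique reads are multimappers, reads that match up to 100 places and typically come from repeated elements. For each unique read, GSS replicates 1 to 3 held 2.43, 2.39 and 2.27 multimapping reads, and wt libraries held 1.78 to 2.06. Because every GSS library lay below every wt library, any such pair has the same order, whatever its length. The pairs at either end of the length range are given for their values only. Among the libraries with the shortest RNAs, GSS replicate 2 had 29.5% unique reads and wt replicate 4 had 34.2%. Among those with the longest, GSS replicate 3 had 30.6% and wt replicate 5 had 32.6%. Without GSS replicate 3, which leaves only 8-nt barcodes, the difference in unique share was −4.97 points (exact permutation p = 0.0952, the smallest possible with 5 against 2). It was −4.99 points without wt replicate 5, and −5.39 points without both. The part of depth in this difference was not tested.

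Taken over raw reads, the order of the groups was kept with a narrow gap. Unique reads were 26.6%, 26.8% and 22.6% of raw reads in GSS replicates 1 to 3. In wt replicates 1 to 5 they were 31.9%, 32.5%, 30.8%, 31.3% and 27.0%. The highest GSS library and the lowest wt library, replicate 5, differed by little, and both low values within a group belong to libraries rich in unmapped reads. The difference of means was −5.38 points with an interval from −9.95 to −0.125 (exact permutation p = 0.0357, adjusted p = 0.0893). It was −4.00 points without GSS replicate 3 and −6.32 points without wt replicate 5. Groups failed to overlap in these 2 unique shares alone, 9.52% of the 21 measures compared between GSS and wt, and 40% of the 5 mapping shares, which is also the share with an unadjusted exact permutation p under 0.05. After adjustment 0% of the 5 mapping shares passed. The 2 shares count the same unique reads and are not independent of each other.

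**Figure D1:**
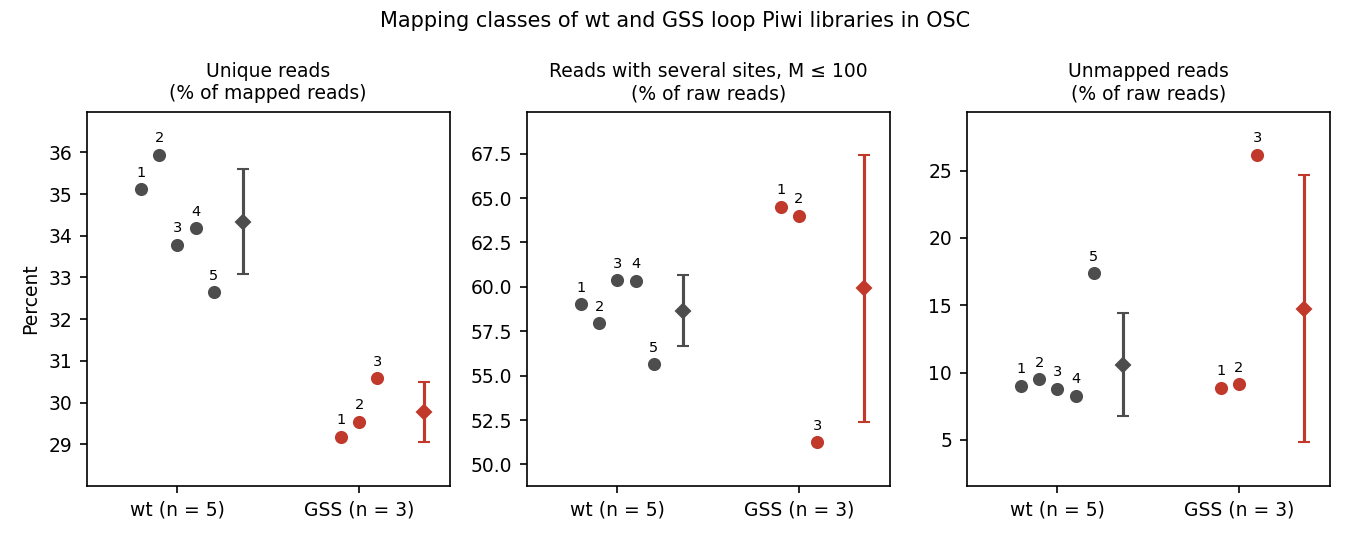
Unique reads as a percent of mapped reads, reads with 2 to 100 sites as a percent of raw reads and unmapped reads as a percent of raw reads. Each numbered point is 1 library of that replicate number, diamonds with bars are mean ± SD, and each panel has its own percent scale that does not start at 0. Every GSS library sits below the lowest wt library, 32.6%, in the first panel only.

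Unmapped reads did not separate the groups. They were 8.88%, 9.12% and 26.2% of raw reads in GSS replicates 1 to 3. In wt replicates 1 to 5 they were 9.01%, 9.51%, 8.78%, 8.28% and 17.4%. A single library in each group was high, and the rest lay together between 8.28% and 9.51%. The difference of 4.13 points had an interval from −8.51 to 17.9 (exact permutation p = 0.429, adjusted p = 0.714), so neither a rise nor a fall of several points can be set aside. It was −1.60 points without GSS replicate 3 and 5.83 points without wt replicate 5.

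Multimappers with up to 100 sites were 64.5%, 64.0% and 51.2% of raw reads in GSS replicates 1 to 3. The wt libraries ranged from 55.6% to 60.4%. GSS replicates 1 and 2 were above every wt library and GSS replicate 3 was below every one. The means of 59.9% and 58.7% did not differ beyond this spread (exact permutation p = 0.821), and the difference was 1.25 points with GSS replicate 3 and 5.59 points without it (exact permutation p = 0.0952). Without wt replicate 5 it was 0.49 points. Reads with more than 100 sites were rare, from 0.0186% to 0.0321% of raw reads in GSS and from 0.0165% to 0.0326% in wt, with overlapping groups (exact permutation p = 0.786).

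RNAs bound to GSS Piwi had the length of piRNAs. Mean length over 20–30 nt was 25.8, 25.0 and 26.8 nt in GSS replicates 1 to 3. It was 25.8, 25.7, 25.9, 24.9 and 26.8 nt in wt replicates 1 to 5. Both groups thus ran over nearly the same range, and each GSS library had a wt library of almost the same mean. Group means were 25.9 ± 0.861 nt (SD, n = 3) and 25.8 ± 0.666 nt (SD, n = 5), with a difference of 0.07 nt and an interval from −1.72 to 1.87 nt (exact permutation p = 0.786, adjusted p = 0.893). A shift of about 1 nt in either direction is inside that interval, so the data do not show that the lengths are the same. The difference was −0.38 nt without GSS replicate 3, −0.16 nt without wt replicate 4 and 0.31 nt without wt replicate 5.

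The most frequent length was 26 nt in GSS replicates 1 and 2 and in wt replicates 1 to 4, and 27 nt in GSS replicate 3 and wt replicate 5. Reads of 26 nt were 27.6%, 25.2% and 18.5% of 20–30 nt reads in GSS replicates 1 to 3, and 20.4% to 27.1% in wt. Reads of 27 nt were 24.1%, 16.7% and 20.6% in GSS replicates 1 to 3. In the wt libraries the 26-nt reads outnumbered the 27-nt reads by 1.14 to 1.61 times, other than in replicate 5 where the ratio was 0.707. The ratio in GSS replicates 1 to 3 was 1.15, 1.51 and 0.899. None of these shares or ratios set the GSS libraries apart as a group.

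Across the 11 lengths from 20 to 30 nt, 0 shares passed the threshold by the exact permutation test with Benjamini-Hochberg adjustment, which is 0% of those tested. A single length at the smallest possible exact permutation p, 0.0357, could not have passed this adjustment, so that count alone says little. The count at an unadjusted p under 0.05 was also 0, and the groups overlapped at every length. The lowest unadjusted p was 0.536, at 30 nt. Mean shares in GSS and wt differed most at 27 nt, with 20.5% ± 3.67 (SD, n = 3) against 22.6% ± 4.87 (SD, n = 5), and at 30 nt, with 2.68% ± 3.78 against 0.733% ± 0.349. The difference at 30 nt was 1.95 points with GSS replicate 3 and −0.23 points without it, so its direction rests on that library. At 27 nt the difference was −2.08 points, and ranged from −3.92 points without wt replicate 4 to −0.21 points without GSS replicate 2. Leaving out 1 library turned the sign at every length but 27 nt. For 25 nt the means were 15.9% ± 3.95 and 16.8% ± 4.16, and for 28 nt they were 11.8% ± 6.25 and 12.2% ± 7.32.

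**Figure D2:**
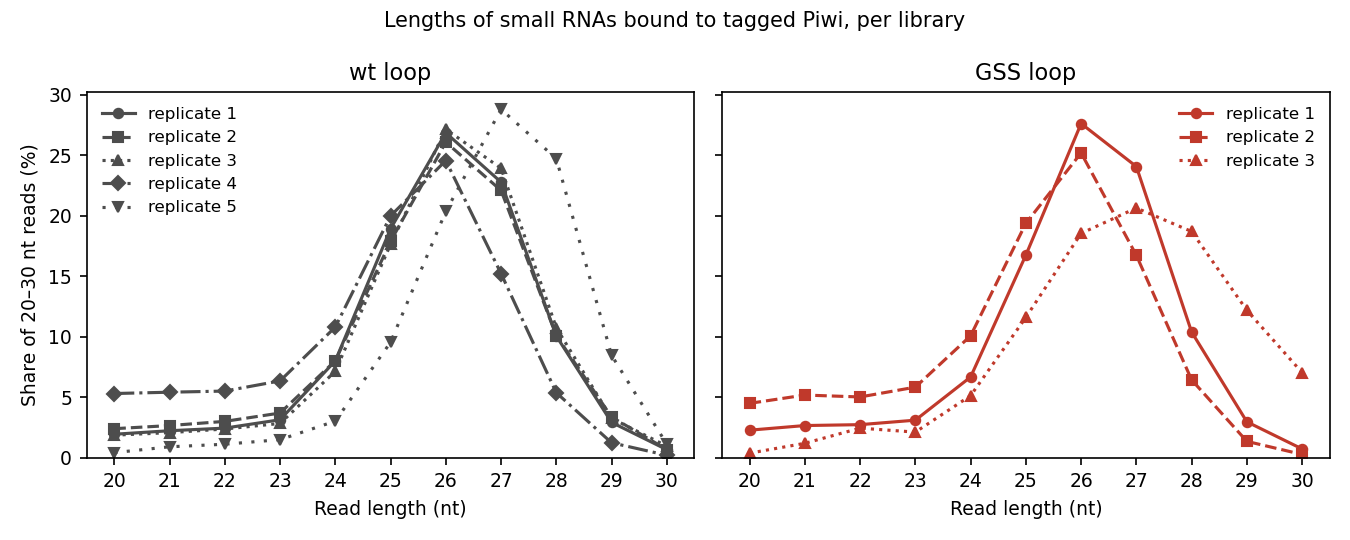
Share of 20–30 nt reads at each length in nt, for the 5 wt libraries (left) and the 3 GSS libraries (right), 1 line per library. Replicate 5 of wt and replicate 3 of GSS peak at 27 nt and the other 6 libraries at 26 nt, and wt replicate 4 and GSS replicate 2 carry the most 20–23 nt reads.

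Short reads of 20–23 nt, below the usual piRNA range, were 10.8%, 20.6% and 6.17% in GSS replicates 1 to 3. In wt replicates 1 to 5 they were 9.79%, 11.8%, 9.17%, 22.6% and 3.97%. The groups covered the same span, and the high library in each was the one with the lowest mean length. Reads of 24–29 nt, the range the study uses for piRNAs, averaged 84.8% ± 4.96 (SD, n = 3) in GSS and 87.8% ± 6.53 (SD, n = 5) in wt. Their difference of −3.00 points ran from −15.7 to 11.3 (exact permutation p = 0.5). It was −3.99 points without GSS replicate 3 and −1.22 points without wt replicate 5, and reached −0.18 points without GSS replicate 2 and −5.65 points without wt replicate 4. For 20–23 nt reads the difference of 1.04 points was 4.22 points without GSS replicate 3 and −0.83 points without wt replicate 5. The width of the profile, its SD over reads, was 1.91, 2.13 and 1.98 nt in GSS replicates 1 to 3 and 1.60 to 2.15 nt in wt (exact permutation p = 0.321). Its difference of 0.13 nt was 0.14 nt without GSS replicate 3 and 0.06 nt without wt replicate 5.

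GSS replicate 3 was the library that departed most from the wt libraries in its long reads. Reads of 30 nt were 0.733%, 0.279% and 7.04% in GSS replicates 1 to 3, and no wt library exceeded 1.13%. At 29 nt the same libraries held 2.97%, 1.36% and 12.2%, against 1.24% to 8.47% in wt. The 7.04% of GSS replicate 3 was the highest 30-nt share of all 20 Piwi libraries from OSC. This library also held a local peak at 22 nt, with 1.47 times the mean of its 21-nt and 23-nt shares, where the other 7 GSS and wt libraries had 0.912 to 0.968 times. Of its mapped reads, 17.6% lay outside 20–30 nt, while the corresponding share was 6.41% and 6.94% in GSS replicates 1 and 2 and 5.55% to 7.22% in wt. Over both groups the share of mapped reads inside 20–30 nt did not separate (means 89.7% and 93.8%, exact permutation p = 0.179), and the difference of −4.09 points was −0.44 points without GSS replicate 3 and −4.07 points without wt replicate 5.

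Whole length profiles were then compared between libraries as the share of reads that would have to change length to make a pair equal. GSS replicate 1 differed from wt replicate 3 by 2.24 percentage points, and GSS replicate 2 from wt replicate 4 by 3.38 points. GSS replicate 3 was nearest to wt replicate 5 among the wt libraries, at 16.0 points. Pairs within GSS differed by 15.8 to 33.8 points, pairs within wt by 2.49 to 41.0 points, and pairs of a GSS and a wt library by 2.24 to 38.3 points. The GSS library nearest to GSS replicate 3 was at 23.8 points. GSS replicates 1 to 3 were thus each closer to a wt library than to any other GSS library.

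Among all 24 Piwi libraries from OSC and ovary, the profile nearest to GSS replicate 3 was that of Piwi with the Ago3 loop from ovary, at 3.48 points, followed by the GSS library from ovary at 6.63 points. Its unmapped share of 26.2% lay within the 14.8% to 31.4% of the 4 ovary libraries. Its unique share of mapped reads, 30.6%, lay near the 29.2% and 29.5% of GSS replicates 1 and 2. In the ovary libraries this share ran from 23.6% for GSS Piwi to 29.8% for wt Piwi. The 10-nt form of barcode is carried by the 4 ovary libraries and also by the 3 LD libraries from OSC, in which the loop was removed. Those LD libraries likewise held more 22-nt reads than the mean of the neighbouring lengths, at 1.57, 1.23 and 1.43 times in replicates 1 to 3. This was a local peak in LD replicates 1 and 3. In LD replicate 2 the share still rose, from 3.33% at 22 nt to 3.85% at 23 nt. The LD libraries held the next 3 places after GSS replicate 3 in 30-nt share among the OSC libraries. The part of barcode, run or cell source in the profile of GSS replicate 3 was not tested.

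Set against the other constructs, the low unique share was not particular to GSS. In order of unique share among the 20 OSC libraries, GSS replicates 1 to 3 held places 4, 5 and 9 from the lowest. Piwi with the loop of Ago3, a PIWI protein of the germline, had 30.4% to 30.9% unique reads in 3 libraries. LD had 28.8% to 30.2% in 3 libraries. Only 42.0% to 56.3% of the mapped reads of LD were 20–30 nt long, against 82.4% to 93.6% for GSS, so its unique share covers many reads outside that range. GSS differed from Ago3 by −0.80 points (exact permutation p = 0.3) and from LD by 0.42 points (exact permutation p = 0.5), within the spread of these libraries. With 3 against 3 libraries the smallest possible p is 0.1, so no difference from these constructs could pass.

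Of the 15 libraries with an altered loop, 11 lay below every wt library in unique share. Most of these 11 were replicates of GSS, Ago3 and LD, so they do not count as separate constructs. Of the 6 constructs with a single library, 2 (dAt1 and dAt5) lay below the wt range and 4 within it. The remaining 4 were single libraries of Aub, hAgo2wt, hAgo2PT and PiwiP4, as the labels name them, and lay within the wt range. These 4 had 15.9% to 19.3% unmapped reads, near the 17.4% of wt replicate 5. Their length profiles differed from that of wt replicate 5 by 3.65 to 5.62 points. The part of run in their unique share was not tested. The mean length of GSS RNAs differed from that of Ago3 by −0.00088 nt and from that of LD by 0.36 nt (exact permutation p = 1 and 0.7). Without GSS replicate 3 these differences were −0.45 and −0.092 nt. In unmapped reads GSS minus LD was −54.2 points, with 14.7% against 68.9% and no overlap (exact permutation p = 0.1, adjusted p = 0.6 over the 6 tests against Ago3 and LD).

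**Figure D3:**
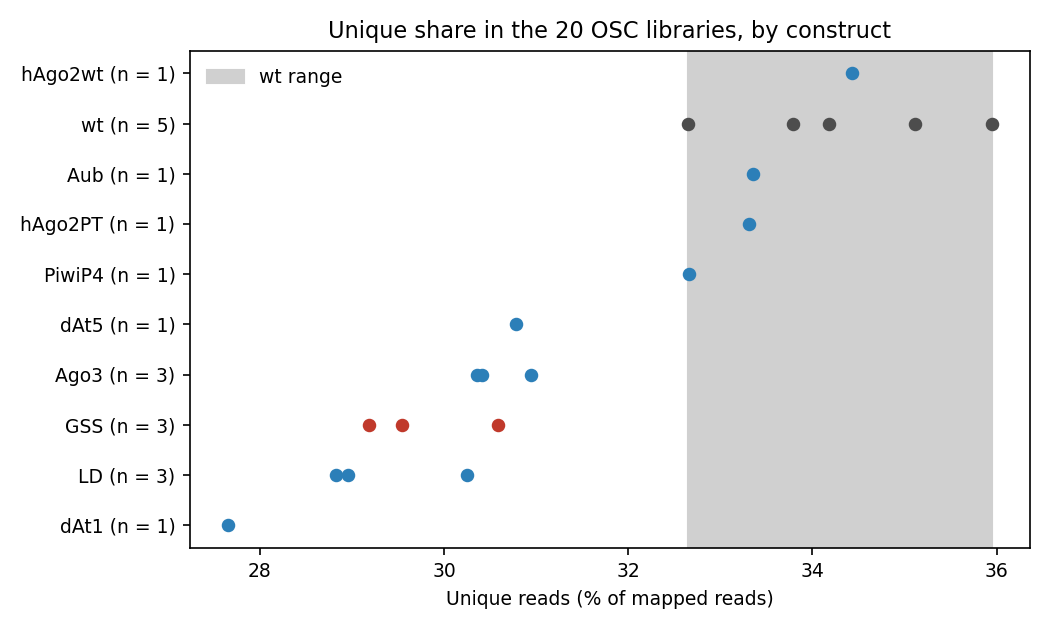
Unique reads as a percent of mapped reads for the 20 OSC libraries, 1 point per library, with constructs named as in the labels and ordered by their mean. The grey band is the wt range, from 32.6% to 35.9%, and all 3 GSS points lie left of it, beside Ago3 and LD.

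The kind of locus that the bound RNAs came from is deposited as 1 row of read counts per construct, so these shares have no replicate check. Each read is placed in transposons, exons, introns or the rest of the genome, and in the first 3 by sense or antisense strand. The wt row is labelled as replicate 1 and holds 9716686 reads, and the GSS row is labelled as replicate 1 and holds 14319574. Neither total equals the mapped reads of any library in the mapping table, where replicate 1 has 9684039 for wt and 14394607 for GSS. Which library or version of it the rows describe is therefore not settled by the files. The same doubt holds for 4 of the other 8 rows. The Ago3 row holds 200.0% of the mapped reads of the library it names, the LD row equals the mapped reads of LD replicate 2, and the hAgo2wt and hAgo2PT rows equal those of each other, so ranks among constructs below are of rows as labelled. Intervals below are 95% Clopper-Pearson intervals and cover counting error only.

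Antisense transposon reads, the class able to base-pair with transposon messages, were the largest class for both loops. They made up 66.3% (66.3% to 66.4%) of GSS reads and 60.8% (60.7% to 60.8%) of wt reads, a difference of 5.55 points. As a share of transposon reads alone the difference was 2.14 points, with 94.6% against 92.5%. The GSS share was the highest of the 10 OSC constructs, and the other 8 ranged from 45.1% to 65.5%. Sense transposon reads were 3.78% for GSS and 4.95% for wt. Antisense reads thus outnumbered sense reads by 17.6 times with the GSS loop and by 12.3 times with the wt loop, and by 11.7 to 14.4 times in the other 8 constructs. The GSS ratio was the highest of the 10, in a single row of counts.

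Sense exon reads, which match the strand of mature messages, were the class with the largest difference. They were 10.2% (10.1% to 10.2%) of GSS reads and 15.9% (15.8% to 15.9%) of wt reads, or 0.640 times as many. The wt value was the highest of the 10 constructs and the other 8 held 6.68% to 11.9%, so GSS lay inside the range of the altered loops and wt outside it. Antisense exon reads were rare at 0.734% for GSS and 0.875% for wt. Intron reads differed little, with 4.75% against 4.44% in sense and 2.38% against 2.55% in antisense, and the rest of the genome held 11.9% for GSS and 10.5% for wt. Loss in one class is gain in another here, since the shares sum to the whole.

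**Figure D4:**
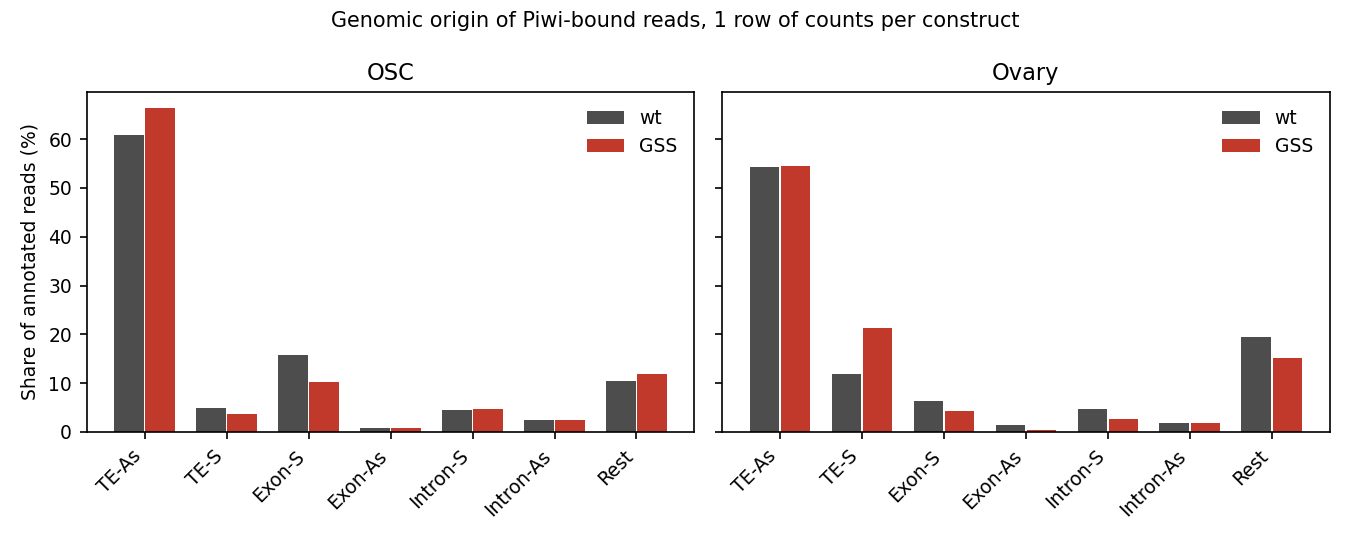
Share of annotated reads in percent for the 7 classes (TE, transposon; S, sense; As, antisense), in OSC (left) and ovary (right), with 1 row of counts per bar and no replicates. In OSC the antisense transposon bar is 66.3% for GSS and 60.8% for wt, and in ovary the sense transposon bar is 21.3% for GSS and 11.9% for wt.

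The same pair of loops was sequenced once each from ovary, where GSS Piwi and wt Piwi were expressed in flies without endogenous piwi function. There the antisense transposon share was 54.6% for GSS and 54.3% for wt. Sense transposon reads were 21.3% for GSS and 11.9% for wt, the reverse order of that in OSC, and antisense reads outnumbered sense reads by 2.57 and 4.56 times. Sense exon reads were lower with GSS in ovary as well, at 4.25% against 6.26%. Unique reads were 23.6% of mapped reads for GSS and 29.8% for wt, the same order as in OSC. The share in ovary was 24.2% with the Ago3 loop and 24.4% with LD, so the low value was not particular to GSS there either. The study purified the LD library from piwi heterozygous flies. With 1 library per loop these ovary values carry no test.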

How the data were processed

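Per the labels and the study's methods, the authors removed adapters and barcodes with cutadapt, removed structural RNAs and mapped to dm6 with STAR, keeping primary alignments of reads with up to 100 sites. The deposited values are read counts per mapping class, length (20 to 30 nt) and annotation class. The files do not say whether structural RNA reads are in the unmapped class. Shares were computed per library. GSS and wt were compared by a two-sided exact permutation test of the difference of means, with Benjamini-Hochberg adjustment over 5 mapping shares, 5 length summaries and 11 lengths, and a threshold of 0.05. The functions were tested on simulated data. Python 3.11.15, numpy 2.4.6, pandas 2.3.3, scipy 1.17.1 and matplotlib 3.10.9 were used. All 11 lengths were tested, and all mapping and annotation classes are named. Shares of single lengths are printed for some lengths only. Of these, 27 and 30 nt were picked because the means differed most there, and 29 and 30 nt because GSS replicate 3 stood out there. Members and tests were chosen with earlier results of these data known. Deviations of length profiles from the mean of replicates 1 to 3 correlated between GSS and wt libraries of the same number at r = 0.31, 0.41 and 0.37, so a replicate block was run as an alternative. This pairing rests on the data alone, and 1 of 3 GSS libraries correlated best with its own number. 0 columns stayed unmatched to a sample. Fly total RNA was not used here.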

Additional observations from a re-analysis of the deposited data

Results flagged for a closer look

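Among the 5 wt libraries, replicate 5 lay far from the others in 3 of 21 measures by Dixon's ratio, where chance gives about 1 in 20. Its unmapped share was 17.4% of raw reads, its 25-nt share was 9.54% and its 28-nt share was 24.7%. The 21 measures overlap, and the shares of single lengths sum to the whole, so the 3 flags are not independent. Groups of 3, such as GSS, were not tested in this way. In 3 of 7 annotation classes the GSS value moved in opposite directions from wt in OSC and in ovary, and these differences were not tested because each is a single row of counts. The 7 shares sum to the whole, so their signs are tied, and the count of 3 is not evidence of a pattern. Which library the OSC rows describe is also not settled. For sense transposon reads GSS minus wt was −1.17 points in OSC and 9.34 points in ovary. For sense intron reads it was 0.31 points in OSC and −2.16 points in ovary, and for the rest of the genome 1.34 and −4.28 points. OSC cells kept their own Piwi and the ovaries did not, so cell source and endogenous protein cannot be told apart here.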

How the results depend on the processing

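The lower unique share of mapped reads with GSS kept its sign in all 14 alternatives, from −4.99 to −4.16 points when each library was left out in turn. The groups did not overlap in this share, so none of these alternatives could have turned its sign. No alternative of the 10 mapping and length measures passed the adjusted threshold, and 0 of 11 lengths passed in any of 15 settings. Leaving out a library puts the smallest possible exact permutation p at 0.0571 or 0.0952, so these settings could not pass. With all libraries the smallest is 0.0357, and a single measure at that value could not pass after adjustment either. With the replicate block, labels were exchanged within numbers 1 to 3, the unique share differed by −5.18 points (exact permutation p = 0.25, the smallest possible), and the block changed no call. Leaving out 1 library at a time, the difference ranged from −1.60 to 7.05 points for unmapped reads, −0.38 to 0.48 nt for mean length, −1.04 to 5.59 points for multimappers with up to 100 sites, −0.0021 to 0.0046 points for those with more, and −2.98 to 4.22 points for 20–23 nt reads, so these directions rest on single libraries. Reads of 24–29 nt ranged from −5.65 to −0.18 points and the share of mapped reads inside 20–30 nt from −6.04 to −0.44 points. Mean length was −0.14 nt without wt replicate 5 and GSS replicate 3 together. Multimappers with more than 100 sites turned to −0.0011 points with wt replicates 1 to 3 only and with the replicate block. The GSS minus LD mean length turned to −0.092 nt without GSS replicate 3, an alternative chosen after seeing the data. The antisense transposon difference was 7.34 points without the rest class and 2.14 points as a share of transposon reads. Counting error of at most 0.0598 points per library is far below the differences between libraries, so the number of libraries sets the precision.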
